A study of Mus musculus with 2 samples.

Results

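Transcripts of 10 macrophage genes were compared in mouse liver, 5 that mark the resident Kupffer cells (*Clec4f*, *Timd4*, *Vsig4*, *Cd5l* and *Marco*) and 5 that mark monocytes newly recruited from blood or the lipid-associated macrophages they can become (*Ly6c2*, *F13a1*, *Trem2*, *Gpnmb* and *Lyz2*). The genes were taken by symbol from a table of 35275 genes, and all 10 were found. The S1a/Ctrl mice (Alb-Cre+/-, Rosa rtTA+/-, S1a+/-) carry a truncated human SREBP1a under the rat PEPCK promoter and serve as a model of fatty liver. The paper reports backcrossing to the FVB strain for other lines of the cross and gives no strain for the SREBP1a line. The S1a/ETP mice also carry TRE-ETP+/-, so that the albumin promoter directs Cre, and with it the doxycycline-dependent expression of endotrophin (the C-terminal fragment released from collagen VI alpha 3) to hepatocytes. Males of both groups ate 200 mg/kg doxycycline for 10 months and were 12 months old when the liver was taken, per the labels. Each group is 1 library made from the pooled RNA of 3 mice. There are no replicates, so the spread between mice is unknown and no p-value was computed.

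Kupffer cells are macrophages seeded in the fetal liver that sit in the sinusoids, clear particles and dying cells from the blood and renew themselves in place. When the liver is injured, Ly6C-high monocytes enter from the blood, and in fatty liver some of their progeny take on a lipid-associated state marked by the receptor Trem2 and the lysosomal glycoprotein Gpnmb. Gain of the latter group of transcripts with loss of the former is the usual transcript sign of Kupffer cell replacement.

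Values are FPKM, the reads of a gene per kilobase of its length and scaled to the depth of the library. Library depth was solved from the FPKM values and gene lengths, starting with the smallest value above 0 as 1 read. It is the sum of the reads over the genes of the table, 19245078 for the control and 14538808 for the endotrophin pool. Multiplying each FPKM by gene length and this depth gave whole reads for 100% of values within 0.01 reads, so every level is given with its reads. Since depth came from the same values, this is no independent check of it. A log2 ratio compares S1a/ETP with S1a/Ctrl after 0.1 FPKM was added to both, and a fold is the plain quotient of the levels in that direction. Square brackets hold 95% exact intervals, Poisson for a level, Clopper-Pearson binomial for a ratio or fold and conditional odds ratio for 1 gene set against another, which cover counting error only. The liver label fitted the defining hepatocyte transcripts, with *Alb*, which encodes albumin, at 31534 FPKM in the control pool and 31035 in the other. In bulk liver RNA, more cells of a type and more transcript per cell cannot be told apart.

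Most of the 10 genes were modestly higher in the S1a/ETP pool, and the summed recruited level, which is mostly *Lyz2*, stood at nearly the same share of the summed resident level in both libraries. The rarer recruited genes were divided, with *Ly6c2*, *F13a1* and *Trem2* higher and *Gpnmb* lower in value. The log2 ratio was above 0 for 9 of 10 genes, as it was for 53.2% of the 16042 genes tested, those whose mean reached 0.1 FPKM. The counting interval lay above 0 for 8 of the 10, against 22.4% of all genes tested, and below 0 for none, against 17.5%. With the libraries rescaled to a median log2 ratio of 0 it lay above 0 for 7, *Trem2* being the one lost. At least 2-fold higher were 3 genes, *Marco*, *Ly6c2* and *F13a1*, where 6.42% of all genes tested were, and none was at least 2-fold lower, where 6.25% were. The median log2 ratio was 0.40 for the resident and 0.48 for the recruited genes, beside 0.03 over all genes tested. The 3 genes past 2-fold were also the least abundant of the 10 in S1a/Ctrl, with 5, 16 and 12 reads there.

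**Figure D1:**
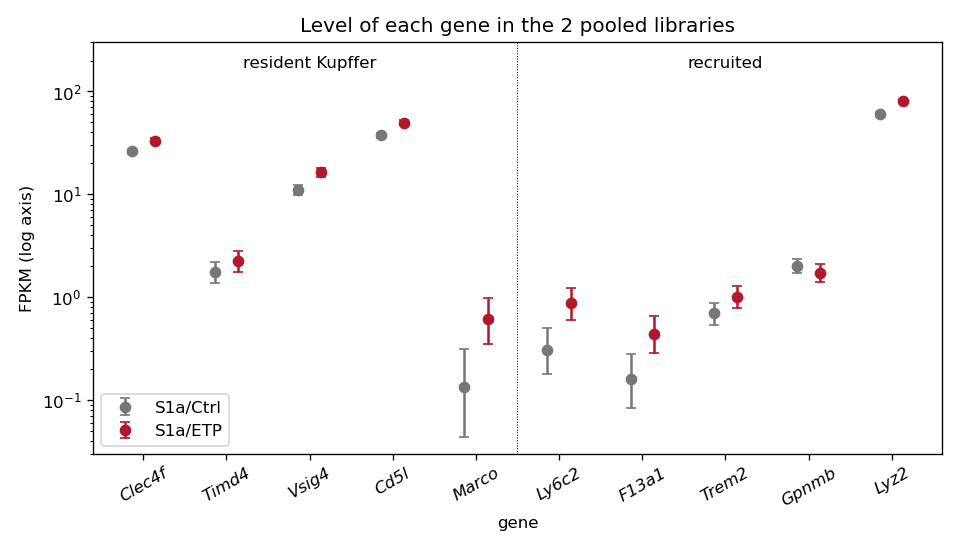
FPKM of each gene (log axis) in the S1a/Ctrl (grey) and S1a/ETP (red) libraries, with 95% Poisson intervals of the reads, for 5 resident Kupffer genes on the left and 5 recruited macrophage genes on the right. The levels run from 0.135 FPKM for *Marco* to 60.2 for *Lyz2* in S1a/Ctrl, and the intervals of the 2 libraries are apart for 7 genes and overlap for *Timd4*, *Trem2* and *Gpnmb*.

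Among the resident genes, *Clec4f* encodes a C-type lectin that in mouse is the marker most restricted to Kupffer cells. The gene spans chromosome 6 from 83644542 to 83656187 on the minus strand of mm10, the build of the deposited table. It was at 26.3 FPKM [24.9, 27.8] in S1a/Ctrl, from 1251 reads, and at 33.3 FPKM [31.5, 35.3] in S1a/ETP, from 1197 reads. The level was higher in S1a/ETP with intervals that did not overlap, at a fold of 1.27 [1.17, 1.37] and a log2 ratio of 0.34 [0.22, 0.45].

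*Cd5l*, the most abundant resident gene, encodes a secreted scavenger-receptor protein also called apoptosis inhibitor of macrophages, on chromosome 3 from 87357881 to 87371074. Its level was 37.6 FPKM [35.7, 39.5] in S1a/Ctrl and 49.8 FPKM [47.3, 52.4] in S1a/ETP, from 1473 and 1474 reads. The fold of 1.32 [1.23, 1.42] was close to that of *Clec4f*, and the log2 ratio was 0.40 [0.30, 0.51].

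*Vsig4* encodes the complement receptor of the immunoglobulin superfamily with which Kupffer cells catch opsonized bacteria, on chromosome X from 96247203 to 96293438. It was at 11.0 FPKM [9.76, 12.3] in S1a/Ctrl (302 reads) and 16.3 FPKM [14.6, 18.2] in S1a/ETP (340 reads), again with levels apart. Its fold was 1.49 [1.27, 1.75] and its log2 ratio 0.57 [0.35, 0.80].

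*Timd4* encodes Tim-4, the phosphatidylserine receptor for apoptotic cells that long-lived Kupffer cells carry and freshly recruited macrophages at first lack. On chromosome 11 from 46810800 to 46844332, it was at 1.75 FPKM [1.37, 2.19] in S1a/Ctrl and 2.25 FPKM [1.76, 2.83] in S1a/ETP, from 73 and 71 reads. The levels overlapped, and the fold of 1.29 [0.915, 1.81] had an interval on either side of 1 at this depth. The log2 ratio of reads of *Clec4f* less that of *Timd4* was −0.02 [−0.53, 0.48].

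*Marco* encodes a collagenous scavenger receptor that binds bacteria and particles and is carried by only a part of the Kupffer cells. The gene lies on chromosome 1 from 120474538 to 120505024 and was at 0.135 FPKM [0.0438, 0.315] in S1a/Ctrl and 0.607 FPKM [0.354, 0.973] in S1a/ETP, the lowest level of the 10 genes in S1a/Ctrl. The fold was 4.50 [1.59, 15.6] on 5 and 17 reads, and the log2 ratio 1.59 [0.52, 2.49]. With a pseudocount of 1 FPKM the log2 ratio was 0.50, short of 2-fold.

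The promoters of 3 resident genes are shown as examples that hold 2, 1 and 0 copies of a macrophage factor's core letters, and no relation of that number to the ratios was tested. The sequences are the 250 bases before the start site in RefSeq (build GRCm38.p6), 5′ to 3′, and capitals mark the letters GAGGAA on either strand, the core bound by PU.1, the transcription factor that macrophage genes share.
Vsig4 (chrX:96293439-96293688, minus strand): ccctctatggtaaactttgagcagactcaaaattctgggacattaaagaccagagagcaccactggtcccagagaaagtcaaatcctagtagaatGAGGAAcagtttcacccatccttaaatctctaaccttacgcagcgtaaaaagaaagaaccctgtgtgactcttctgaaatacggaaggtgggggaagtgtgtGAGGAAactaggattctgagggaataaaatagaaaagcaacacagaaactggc
Marco (chr1:120505025-120505274, minus strand): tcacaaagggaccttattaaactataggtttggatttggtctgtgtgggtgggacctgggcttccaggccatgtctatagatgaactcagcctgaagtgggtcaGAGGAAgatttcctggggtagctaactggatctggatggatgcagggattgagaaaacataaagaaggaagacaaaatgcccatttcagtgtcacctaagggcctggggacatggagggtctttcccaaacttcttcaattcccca
Clec4f (chr6:83656117-83656366, minus strand): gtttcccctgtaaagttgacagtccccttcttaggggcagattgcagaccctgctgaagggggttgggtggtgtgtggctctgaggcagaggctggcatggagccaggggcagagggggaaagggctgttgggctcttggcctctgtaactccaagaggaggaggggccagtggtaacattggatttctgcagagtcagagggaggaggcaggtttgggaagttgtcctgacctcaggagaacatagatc
*Vsig4* held 2 such cores, *Marco* 1 and *Clec4f* 0. All 10 genes matched the RefSeq table, in 12 windows, and 7 of these 12 held the core, where 23.3% of all 32851 promoter windows of this length hold it. Those windows belong to 6 genes, as both windows of *Ly6c2* hold the core and overlap each other. The C/EBP letters TTNNGNAA stood in 8 of the 12 (36.8% of all windows) and the nuclear receptor letters AGGTCA in 3, those of *Clec4f*, *Timd4* and *Trem2* (14.0%). TCATGTG, the M-box of MITF and TFE factors, and CACGTG, the core of their lysosomal gene element, were in none of the 12 windows, that of *Gpnmb* included. They were in 3.25% and 6.02% of all windows. Both strands were searched, overlapping matches were counted, and a match is a run of letters, not a measured site.

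Among the recruited genes, *Ly6c2* encodes a part of the Ly6C surface antigen by which inflammatory monocytes are sorted. *Ly6c2* lies on chromosome 15 from 75108158 to 75111970 and was at 0.310 FPKM [0.177, 0.504] in S1a/Ctrl and 0.873 FPKM [0.604, 1.22] in S1a/ETP, from 16 and 34 reads. The levels did not overlap, and the fold was 2.81 [1.51, 5.46] with a log2 ratio of 1.25 [0.50, 1.97]. With a pseudocount of 1 FPKM the log2 ratio was 0.52, which ends the 2-fold call.

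*Lyz2* encodes lysozyme M, a secreted enzyme that cuts bacterial cell walls and is made by monocytes, macrophages and neutrophils alike. The gene is on chromosome 10 from 117277334 to 117282274 and was the most abundant of the 10 genes, at 60.2 FPKM [57.2, 63.4] in S1a/Ctrl and 80.5 FPKM [76.5, 84.7] in S1a/ETP. Its fold of 1.34 [1.24, 1.44], on 1467 and 1482 reads, was of the size of the abundant resident genes, and the log2 ratio was 0.42 [0.31, 0.52].

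Both genes have a close copy nearby that can take or lend reads, and the coding sequences show how much the copies share. Shown are coding bases 1 to 300, the stretch with the most differences, from GENCODE M21 (GRCm38), 5′ to 3′, and capitals mark the bases at which the copies differ.
Lyz2: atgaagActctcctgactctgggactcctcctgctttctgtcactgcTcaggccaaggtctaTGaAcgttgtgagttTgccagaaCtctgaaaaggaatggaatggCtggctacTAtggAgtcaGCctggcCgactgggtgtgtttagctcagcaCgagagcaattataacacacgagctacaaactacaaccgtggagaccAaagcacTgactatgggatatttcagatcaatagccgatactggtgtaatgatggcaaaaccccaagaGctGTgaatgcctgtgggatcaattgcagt
Lyz1: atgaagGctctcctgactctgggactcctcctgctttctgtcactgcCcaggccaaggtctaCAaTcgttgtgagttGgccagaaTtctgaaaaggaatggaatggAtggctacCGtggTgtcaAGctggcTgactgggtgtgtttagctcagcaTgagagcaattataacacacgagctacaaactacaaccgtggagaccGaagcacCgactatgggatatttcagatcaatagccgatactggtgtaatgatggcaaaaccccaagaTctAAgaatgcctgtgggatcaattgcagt
Ly6c2: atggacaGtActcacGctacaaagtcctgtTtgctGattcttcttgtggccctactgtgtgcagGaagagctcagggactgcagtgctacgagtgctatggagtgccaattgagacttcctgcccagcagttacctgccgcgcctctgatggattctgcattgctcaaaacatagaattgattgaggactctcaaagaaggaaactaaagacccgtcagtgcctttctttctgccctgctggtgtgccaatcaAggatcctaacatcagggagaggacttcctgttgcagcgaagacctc
Ly6c1: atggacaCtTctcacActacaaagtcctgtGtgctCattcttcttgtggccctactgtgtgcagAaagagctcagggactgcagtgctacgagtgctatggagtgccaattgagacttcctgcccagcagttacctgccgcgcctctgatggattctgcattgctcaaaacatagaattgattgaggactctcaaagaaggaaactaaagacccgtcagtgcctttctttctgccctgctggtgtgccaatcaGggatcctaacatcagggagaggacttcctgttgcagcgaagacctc
*Lyz2* and *Lyz1* differ at 22 of 444 coding bases, 20 of them shown, an identity of 95.05%, and their longest shared run is 118 bases. *Ly6c2* and *Ly6c1* differ at 9 of 393 coding bases, 7 of them shown, an identity of 97.7%, with a shared run of 188 bases. Of the windows of 100 bases in the coding transcript of *Lyz2*, 1.97% also occur in *Lyz1* transcripts, and of those in *Ly6c2* 15.8% occur in *Ly6c1* transcripts. *Lyz1*, the lysozyme of intestinal Paneth cells, had 4 and 2 reads, and whether reads passed between the copies was not tested. *Ly6c1*, which endothelial cells also express, had 15 and 21 reads, at levels of 0.923 and 1.71 FPKM, close to the reads of *Ly6c2*, so the split between these copies is uncertain.

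*F13a1* encodes the A subunit of coagulation factor XIII, the transglutaminase that crosslinks fibrin, and is made by monocytes, some macrophages and platelets. It is found on chromosome 13 from 36867178 to 37050244, where GENCODE M21 places 2 antisense genes within it. Its level was 0.161 FPKM [0.0831, 0.281] in S1a/Ctrl and 0.444 FPKM [0.287, 0.655] in S1a/ETP, from 12 and 25 reads, with intervals just apart. The fold was 2.76 [1.34, 6.02] and the log2 ratio 1.06 [0.31, 1.75]. A pseudocount of 1 FPKM gave 0.31, below 2-fold, and one of 0.01 FPKM gave 1.41.

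*Trem2* encodes the lipid-sensing receptor that gives lipid-associated macrophages their name in many surveys, on chromosome 17 from 48346401 to 48354147. It was at 0.695 FPKM [0.535, 0.888] in S1a/Ctrl and 1.01 FPKM [0.785, 1.27] in S1a/ETP, from 64 and 70 reads. The levels overlapped, while the interval of the fold, 1.45 [1.02, 2.06], just left out 1, and the log2 ratio was 0.48 [0.02, 0.93]. Rescaled to a median log2 ratio of 0, it was 0.45 with an interval from −0.00 to 0.90, which holds 0.

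*Gpnmb*, which encodes the transmembrane glycoprotein NMB of lysosomes under lipid load, was the single gene of the 10 with a lower value in the S1a/ETP pool. *Gpnmb* spans chromosome 6 from 49036518 to 49058182 and was at 2.02 FPKM [1.71, 2.38] in S1a/Ctrl and 1.74 FPKM [1.41, 2.12] in S1a/ETP, from 148 and 96 reads. Its levels overlapped, with a fold of 0.859 [0.657, 1.12] and a log2 ratio of −0.21 [−0.57, 0.15].

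**Figure D2:**
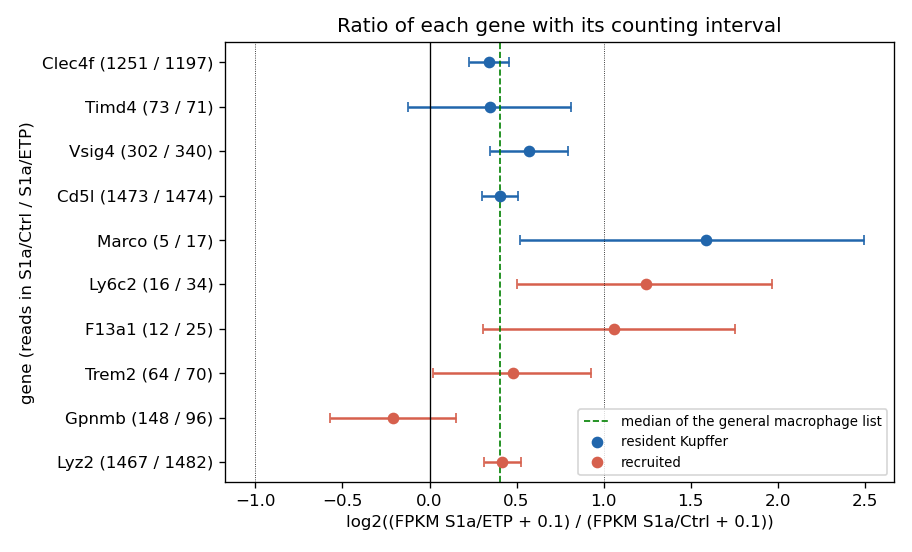
log2 ratio of each gene between the S1a/ETP and S1a/Ctrl libraries with its 95% Clopper-Pearson counting interval, resident Kupffer genes in blue and recruited macrophage genes in red, reads beside the names. Dotted lines mark 2-fold and the dashed line the median of the general macrophage list at 0.41. *Gpnmb* lies at −0.21 and the 3 genes past 2-fold have the widest intervals.

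The order of the levels was much the same in both libraries, *Lyz2*, *Cd5l*, *Clec4f* and *Vsig4* in that order on top with intervals apart. *Gpnmb* and *Timd4* came next and overlapped in both libraries, with *Gpnmb* the higher in S1a/Ctrl and *Timd4* in S1a/ETP. At the low end *Ly6c2*, *F13a1* and *Marco* overlapped as neighbors in both libraries, and *Trem2* overlapped *Ly6c2* in S1a/ETP only. The FPKM of *Trem2* and *Ly6c2* rest on gene lengths of 4784 and 2680 bases, where the transcripts with the longest coding sequence have 1056 and 822 bases in GENCODE M21 and the longest transcript of each is a retained intron form. Scaled to the coding transcript instead, *Trem2* was at 3.15 and 4.56 FPKM, above *Gpnmb* at 2.08 and 1.78, and *Ly6c2* was at 1.01 and 2.84 FPKM. For a single gene, the ratio between libraries does not depend on this length except through the pseudocount. In a sum of FPKM the length sets the weight of each gene.

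Summed over the group, the recruited genes had 1707 reads in either library and the resident genes 3104 in the control and 3099 in the endotrophin library. Summed FPKM of the recruited genes was 63.4 and 84.6, and of the resident genes 76.7 and 102. The recruited sum was thus 0.826 of the resident sum in the control library and 0.827 in the endotrophin library, a log2 change of 0.00 with a 95% interval of −0.12 to 0.12 from the read counts. *Lyz2* carried 94.97% and 95.2% of the recruited sum. Without it the ratio was 0.0416 and 0.0397, a log2 change of −0.07 from −0.34 to 0.21, and by reads −0.09 [−0.37, 0.19]. In that sum *Gpnmb*, the gene with the lower value, made up 63.5% in the control and 42.8% in the endotrophin library. The FPKM ratio without *Lyz2* and this share rest on the deposited gene lengths. Sums on coding transcript lengths, where *Trem2* stood above *Gpnmb*, were not computed. The remaining *Ly6c2*, *F13a1* and *Trem2* summed to 1.17 and 2.32 FPKM, 1.99-fold, where the resident sum was 1.33-fold. Their ratio to the resident sum was 0.0152 and 0.0227, a log2 change of 0.58 from 0.17 to 0.98. *Gpnmb* was left out after its value was seen, so this last value is a description of these 3 genes. The balance of the groups thus depended on which recruited genes were summed.

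Within the 2 groups the genes differed in their ratios. Of 45 pairs of genes, 20 had an interval for the change in their read ratio that left out 0, without allowance for the number of pairs, 9 of them among 20 pairs within a group and 11 among 25 pairs across. *Gpnmb* took part in 8 of the 20 and *Marco* in 7. Within the recruited group, the log2 ratio of reads of *Ly6c2* exceeded that of *Gpnmb* by 1.71 [0.72, 2.74], and that of *Trem2* exceeded it by 0.75 [0.11, 1.40]. Within the resident group, *Clec4f* minus *Marco* was −1.83 [−3.63, −0.33], and *Clec4f*, *Timd4*, *Vsig4* and *Cd5l* had no pair apart among themselves. Across the groups, *Clec4f* minus the monocyte genes *Ly6c2* and *F13a1* gave −1.15 [−2.11, −0.25] and −1.12 [−2.26, −0.07]. *Cd5l* minus each also left out 0, and *Timd4* did so for *Ly6c2* only. *Vsig4* minus each held 0, at −0.92 [−1.90, 0.01] and −0.89 [−2.04, 0.19]. *Marco* minus each was above 0 in value with an interval that held 0. *Clec4f* minus *Gpnmb* went the other way, at 0.56 [0.16, 0.96]. For *Clec4f* minus *Trem2* and minus *Lyz2* the difference was −0.19 [−0.72, 0.33] and −0.08 [−0.24, 0.08], which hold 0.

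**Figure D3:**
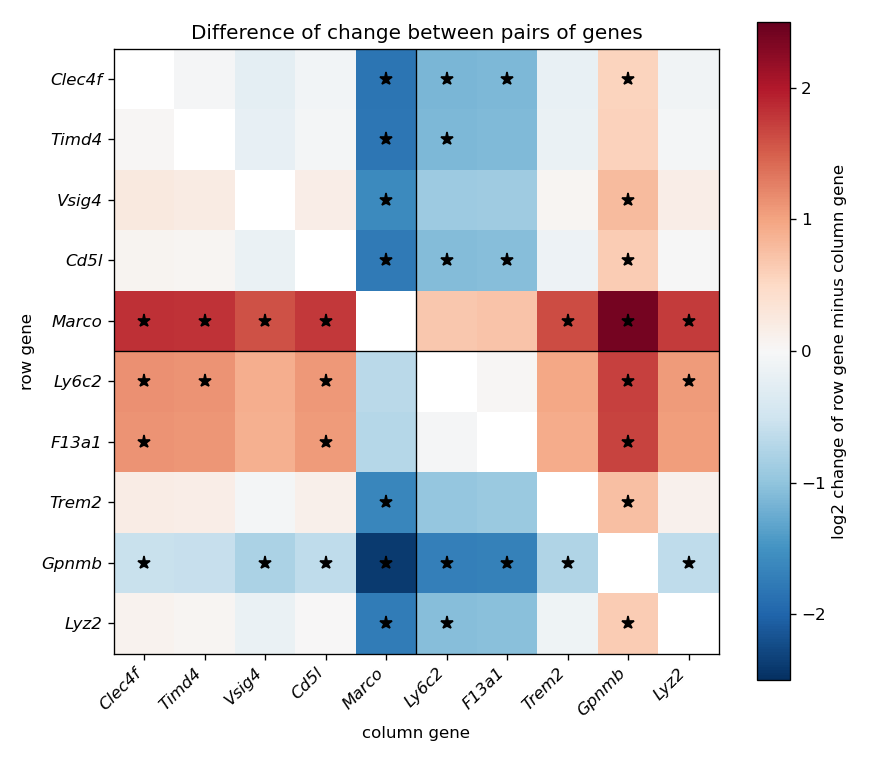
Difference in log2 ratio between each pair of genes (row gene minus column gene, from reads), with lines that part the resident from the recruited genes. Stars mark the 20 of 45 pairs whose 95% interval leaves out 0, most of which involve *Marco*, *Gpnmb* or *Ly6c2*.

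The general macrophage transcripts give a scale for these ratios. Of 15 such genes 13 had a ratio above 0, 11 with an interval above 0 and none past 2-fold in either direction, and the median log2 ratio was 0.41. *Adgre1*, which encodes the F4/80 antigen, was at 1.89 and 2.78 FPKM with a log2 ratio of 0.53 [0.18, 0.89]. *Csf1r*, the receptor through which macrophages receive their survival signal, was at 0.46 [0.27, 0.64]. *Cd68*, a lysosomal glycoprotein of phagocytes, had the highest ratio of the list at 0.77 [0.49, 1.05], the complement gene *C1qa* was the most abundant at 0.41 [0.27, 0.54], and *Fcgr1*, a high-affinity receptor for immunoglobulin G, was the lowest at −0.56 [−1.21, 0.08]. Against the summed reads of this list, 7504 in S1a/Ctrl and 7787 in S1a/ETP, *Clec4f*, *Timd4*, *Vsig4*, *Cd5l*, *Trem2*, *Lyz2* and *F13a1* had intervals that held 1. *Gpnmb* was 0.625-fold [0.477, 0.815] relative to the list, *Ly6c2* 2.05-fold [1.10, 3.98] and *Marco* 3.28-fold [1.16, 11.4].

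Other Kupffer cell genes ranged from −0.38 to 0.78. Of 11 listed, 9 had a ratio above 0 and 6 an interval above 0 and 2 below, with a median of 0.31 and none past 2-fold. *Siglec1*, which encodes the sialic acid receptor CD169, was the highest at 0.78 [0.35, 1.21]. The iron exporter gene *Slc40a1* was the lowest at −0.38 [−0.47, −0.28], and *Hpgd*, a prostaglandin-degrading enzyme and the most abundant of the list, was at −0.31 [−0.43, −0.20], though other liver cells express both as well. Which cells carried the transcripts of the genes with higher values was not tested. Of the 6 identity regulators, 1 had an interval above 0 and 1 below, with a median of 0.02. *Nr1h3*, the oxysterol receptor LXR alpha that Kupffer cells share with hepatocytes, was at 0.04 [−0.06, 0.14], and *Id3*, an inhibitor of differentiation needed for Kupffer cells, at 0.01 [−0.16, 0.18]. *Spic*, a transcription factor of heme-handling macrophages, was at 0.87 [−0.04, 1.74] on 11 and 18 reads, and *Id1* was the lowest at −0.37 [−0.70, −0.05].

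Other monocyte genes had a median of 0.65, beside 0.41 for the general macrophage genes, and of 0.34 beside 0.39 with a pseudocount of 1 FPKM. Of 8 that passed the filter of 9 listed, 6 had an interval above 0 and 2 were at least 2-fold higher. *Ccr2*, the chemokine receptor that brings monocytes out of the marrow, was at 0.84 [0.29, 1.38] on 31 and 48 reads. *S100a4*, a calcium-binding protein of motile cells, was the highest at 1.40 [0.62, 2.21], *Plac8* the most abundant at 0.60 [0.27, 0.92], and *Ms4a4c*, with 6 and 3 reads, the lowest at −0.35 [−1.47, 0.96].

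Other genes of lipid-associated macrophages were mostly higher in value in S1a/ETP, with some lower. Of 14, 10 had a ratio above 0, 7 with an interval above 0, 1 had an interval below 0, and the median was 0.21. *Fabp5*, a fatty acid carrier, was the highest at 28.6 and 51.8 FPKM and 0.85 [0.77, 0.94], and *Clec7a*, the receptor for fungal glucans, the lowest at −0.45 [−0.95, 0.04]. The most abundant, *Apoe*, which hepatocytes also make, had the interval below 0, at −0.43 [−0.44, −0.42]. For the genes with higher values, *Fabp5* included, the share that came from macrophages was not tested. *Tyrobp*, the adaptor through which Trem2 signals, was at 18.7 and 22.4 FPKM and 0.26 [−0.03, 0.56]. Of the 5 signaling partners, 2 had an interval above 0, with a median of 0.29. Among them *Plcg2*, a phospholipase below that adaptor, was the highest at 0.95 [0.41, 1.49], and *Hcst*, on 12 and 4 reads, the lowest at −1.07 [−2.72, 0.50].

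Genes that call in or sustain these cells were mixed in direction. Of 9 measured recruitment and growth factor genes, 1 interval lay above 0 and 1 below, with a median of 0.30. *Csf1*, the main macrophage growth factor, was at 2.74 and 3.11 FPKM and 0.18 [−0.10, 0.46]. *Il34*, the other ligand of the Csf1 receptor, had the interval above 0, at 0.74 [0.20, 1.29], and is named after its value was seen. *Ccl12* had 0 and 2 reads, and *Ccl3*, an inflammatory chemokine, 7 and 0, 1.76-fold lower if 3 reads stand in for the 0.

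**Figure D4:**
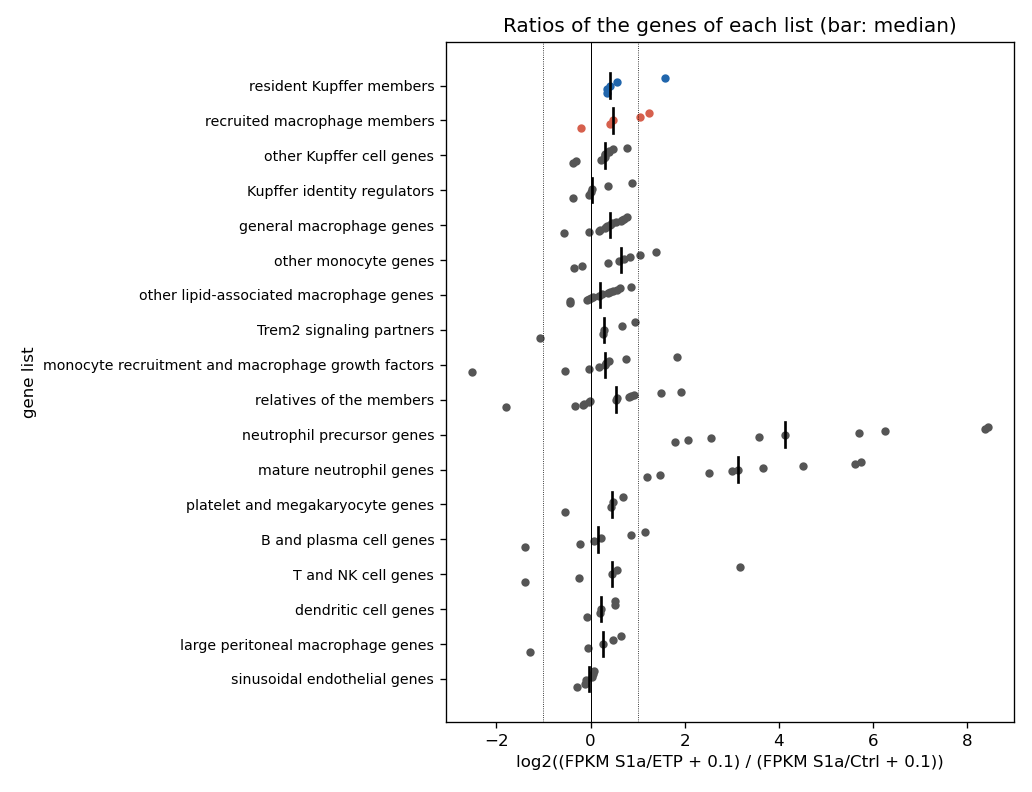
log2 ratio of every gene with a mean of at least 0.1 FPKM on each list drawn (points) and the list's median (bar), with dotted lines at 2-fold. The hepatocyte and skeletal muscle lists, with medians of −0.27 and −5.73, are not drawn. The macrophage and monocyte lists have medians between 0.02 and 0.65, and the lists of neutrophil precursors and mature neutrophils have medians of 4.13 and 3.14.

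Transcripts of other cells that share these markers also differed between the libraries. Neutrophils also make *Lyz2*, and all 9 mature neutrophil genes that passed the filter of 10 listed were at least 2-fold higher in S1a/ETP, with summed levels of 6.315 and 289.9 FPKM and a median of 3.14. All 9 precursor genes were too, at 0.669 and 89.5 FPKM summed, with 6 of them at 0 reads in S1a/Ctrl. The median of the precursor list was 4.13, or 4.86 with those 6 at their bound against 3 reads. Since the median gene had 0 reads in S1a/Ctrl, the pseudocount sets that median, which was 1.66 with 1 FPKM and 7.38 with 0.01 FPKM. The mature list's median was 1.25 and 4.74 under the same settings. Platelets also carry *F13a1*, and of 7 platelet genes 4 passed the filter, at 4.69 and 6.96 FPKM summed. *Pf4*, the main platelet chemokine, was at 0.68 [−0.09, 1.45]. *Gp1ba*, a part of the platelet receptor for von Willebrand factor, was at −0.53 [−1.41, 0.53]. The 1 interval above 0 was that of *Itga2b*, at 0.48 [0.08, 0.88] on 94 and 101 reads, a gene named after its value was seen. In the other direction, all 7 skeletal muscle genes were 2-fold or more lower, with 1996 reads in the control and 8 in the endotrophin library, where 5 of the genes were at 0. The part of these cells in the levels of *Lyz2*, *F13a1*, *Ly6c2* and the other monocyte genes was not tested. Sinusoidal endothelial genes, as neighbors of the Kupffer cells, had a median of −0.03 with none of 6 intervals apart from 0, and the 7 hepatocyte genes a median of −0.27.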

How the data were processed

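Novogene sequenced 1 library of pooled liver RNA, from 3 mice, per group (S1a/Ctrl, S1a/ETP). The authors deposited 1 table of FPKM values with gene IDs, symbols, mm10 coordinates and lengths. In the submitters' processing notes stand StringTie 1.3.3b, STAR, edgeR 3.16.5, HTSeq 0.6.1 and DESeq2, with no roles. The annotation release, the read length and any use of strand in counting were not given in the sources used here. Near-identical and antisense genes are therefore uncertain. The paper's methods set a p-value and a 2-fold threshold. Only the 2-fold size was kept, since 1 library per group gives no spread.

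From the FPKM values, reads were recovered with the gene lengths. Log2 ratios used a pseudocount of 0.1 FPKM and a mean of at least 0.1 FPKM, which all 10 genes passed. Clopper-Pearson, Poisson and conditional odds ratio intervals at 95% cover counting error only, and the interval of the summed FPKM ratio is a normal approximation from the reads. A library at 0 was set to 3 reads for a bound. The comparison genes were 8 lists of related genes (83 entries) and 10 of other cell types (73), 2 of whose genes the table holds under older symbols. The rule for named ones was the highest, lowest and most abundant of a list (the neutrophil, endothelial, hepatocyte and muscle lists are given by sums or medians), with *Adgre1*, *Csf1r*, *Cd68*, *Nr1h3*, *Spic*, *Id3*, *Ccr2*, *Tyrobp*, *Lyz1*, *Ly6c1* and *F13b*. The 10 genes and the lists were chosen with earlier results of these data known. Results were recomputed with other pseudocounts, filters, thresholds and scalings, for protein-coding genes and without *Lyz2*. Leaving out *Marco*, leaving out *Lyz2* with *Gpnmb* and a minimum of 20 reads were added after seeing the data. Read recovery, the log2 ratio of a gene and its Clopper-Pearson interval were tested on simulated data. The other intervals, the bounds and the sequence searches were not. Python 3.11.15, numpy 2.4.6, pandas 2.3.3, scipy 1.17.1 and matplotlib 3.10.9 were used.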

Additional observations from a re-analysis of the deposited data

How the results depend on the processing

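The signs of the 10 log2 ratios were the same under every alternative that gave a value. The count of genes at least 2-fold higher and lower, 1030 and 1003, was 128 and 169 when the pseudocount was 1 FPKM, 241 and 203 when the mean had to reach 1 FPKM, 264 and 338 at 4-fold, 630 and 469 for protein-coding genes and 454 and 358 with at least 20 reads. The 3 of the 10 genes at least 2-fold higher became 0 under each of the first 3 of these settings. The recruited minus resident difference of medians was 0.07, but −0.08 under the larger pseudocount and −0.27 under the stricter mean, where *Trem2*, *Ly6c2*, *F13a1* and *Marco* drop out, and 0.36 without *Lyz2*. Without *Lyz2* and *Gpnmb*, a choice made after seeing the data, it was 0.65, with a recruited median of 1.06 and a log2 change of the summed ratio of 0.58. That change lay between −0.07 and 0.01 under the other FPKM alternatives, and was −0.09 from reads without *Lyz2*. The ratio of *Marco* was 0.50 under the larger pseudocount, and the other 75 alternative values of the 10 genes stayed within their counting intervals. Of the alternative medians of the lists, 20 left the counting interval of the list's median gene and 123 did not. Rescaling to a median of 0, to TPM or without the 100 most abundant genes moved the scale of S1a/ETP against S1a/Ctrl by −0.03, 0.07 or 0.03 (log2). Through the pseudocount, TPM moved the 10 log2 ratios by 0.06 to 0.28, most for *Marco*. No paired analysis was possible because each group is 1 library. Depth limits *Marco*, *Ly6c2* and *F13a1* most, at 22, 50 and 37 reads in all, and the spread between mice is unknown.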

Other observations

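Genes related to the 10 by sequence or assembly had a wide range of ratios. *Cd207*, which encodes the C-type lectin langerin and lies beside *Clec4f* on chromosome 6 from 83671207 to 83677857, had levels of 3.57 and 6.88 FPKM in the control and the endotrophin pool and a ratio of 0.93 [0.57, 1.29] on the log2 scale, and was singled out after its value was seen. *Msr1*, a collagenous scavenger receptor like Marco and likewise singled out, was at 0.54 [0.24, 0.84]. *F13b*, the carrier subunit of coagulation factor XIII that hepatocytes secrete, was the most abundant relative at 60.7 and 55.1 FPKM, at −0.14 [−0.22, −0.06]. *Trem3* had 0 and 4 reads, and *Treml1*, a platelet receptor, 6 and 0. With 3 reads in place of the 0 they were 1.76-fold higher and 1.51-fold lower. Their log2 counting intervals, [−0.11, 1.91] and [−1.81, 0.10], both held 0. *Trem1*, likewise named after its value was seen, had an interval above 0, at 1.49 [0.47, 1.81] on 1 and 10 reads. Over the 13 relatives the median was 0.54, with 3 intervals above 0 and 1 below.

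Among other cells, *Jchain*, the joining chain of secreted antibodies, was at 3.36 and 7.56 FPKM and 1.15 [0.77, 1.53], while *Cd79a*, a B cell receptor chain, had 8 and 1 reads. *Nkg7*, a granule protein of killer lymphocytes, had 1 and 17 reads and *Cd3g*, a T cell receptor chain, 17 and 4. *Gata6*, which marks large peritoneal macrophages and is not confined to them, was at 0.65 [0.35, 0.96], *Saa3* at 0.27 [−0.08, 0.62] and *Alox15* had 10 and 1 reads. The dendritic cell genes *Flt3* and *Zbtb46* were at 0.53 [−0.22, 1.17] and −0.07 [−0.47, 0.32]. The medians were 0.15 for the B and plasma cell, 0.45 for the T and NK cell, 0.22 for the dendritic cell, 0.27 for the peritoneal macrophage and 0.46 for the platelet list.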
